A study of Mus musculus with 10 samples.

Results

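Cytokine and chemokine transcripts were examined in mouse small intestinal epithelial cells sorted by the level of GUCY2C, the guanylyl cyclase C receptor. The members were the protein-coding genes whose symbols belong to the Ccl, Cxcl and Cx3cl chemokines, the interleukins, the TNF superfamily ligands with Tnf, Tslp and the colony-stimulating factors Csf1 to Csf3. The rule used names only and took 92 of the 54532 genes in the count table, with 86 distinct symbols and 7 rows on unplaced scaffolds. Both groups of libraries came from 5 litter-matched Gucy2c-GFP mice, an outbred CD1 (ICR) reporter strain from GENSAT in which the Gucy2c promoter drives GFP, 10 weeks old. GUCY2Chi cells had high GFP and GUCY2Cmed cells, the bulk epithelium, had medium GFP. Each of the 10 libraries held 20000 sorted cells, and the replicate numbers 2, 7, 12, 14 and 15 occur in both groups and are taken here as the numbers of the mice. The gate rests on reporter brightness, so a library can hold any cell that shares it.

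Epithelial cells of the gut are an early source of signals to the immune system. Chemokines are small secreted proteins that draw leukocytes bearing matching receptors, interleukins and TNF ligands act on epithelial and immune receptors, and alarmins such as IL-18 and IL-33 are stored and released when cells are stressed or damaged. Ligands of the TNF superfamily bind receptors of the TNF receptor superfamily, some of which signal and some of which act as soluble decoys. Enteroendocrine cells, the hormone-making cells of the epithelium, share a lineage with enterocytes and lie within the same layer.

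Libraries held 10903958 to 15307932 counted reads. Gucy2c itself was 549 to 1757 cpm in GUCY2Chi and 323 to 483 cpm in GUCY2Cmed, where cpm is the TMM-normalized read count scaled to 1e+06 reads a library. The summed level of 12 enteroendocrine marker genes was 7967 to 64801 cpm in GUCY2Chi and 94.6 to 388 cpm in GUCY2Cmed, with 11 of the 12 called higher. The GUCY2Chi libraries of mice 12 and 15 stood apart. Their summed level of 12 enterocyte markers was 45.7% and 43.5% of that in the GUCY2Cmed library of the same mouse, against 5.39% to 6.11% in the other mice. Library 15 also had the lowest enteroendocrine sum of the GUCY2Chi libraries, and its 13 forebrain markers summed to 2325 cpm, the highest of the 10 libraries. Values without these libraries are given beside the results that they change. For a gene high in both of them, leaving them out lowers the GUCY2Chi mean, so a wider difference then adds no evidence.

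Of the 92 cytokine and chemokine genes, 30 had no read in any library, 30 more had reads but stayed below the filter of more than 0.5 cpm in at least 3 libraries, and 32 were tested. With edgeR at an adjusted p under 0.01, 4 of the 32 were higher in GUCY2Chi (12.5%), where 13.9% of all 15703 genes tested were called higher. Another 3 were lower (9.4%), where 8.79% of all genes tested were called lower. Both shares lay near the background. The higher genes were Il17d, Il17f, Tnfsf9 and Tnfsf4, and the lower genes were Cx3cl1, Tnfsf10 and Ccl20. The median log2 difference, GUCY2Chi over GUCY2Cmed, was -0.405 over the 32 members and 0.094 over all genes tested. The 5 libraries of each group did not overlap for 5 members that were higher (15.6%, against 16.7% of all genes) and for 8 that were lower (25%, against 13.2% of all genes). Without GUCY2Chi libraries 12 and 15, 10 of 29 members tested were lower and 4 were higher, while the calls over all genes in that fit rose to 14.4% lower and 17.9% higher. Scaling by library size alone moved the median of all genes from 0.094 to 0.388, and 0 members were then called lower, with 3.55% of all genes lower in that fit.

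**Figure D1:**
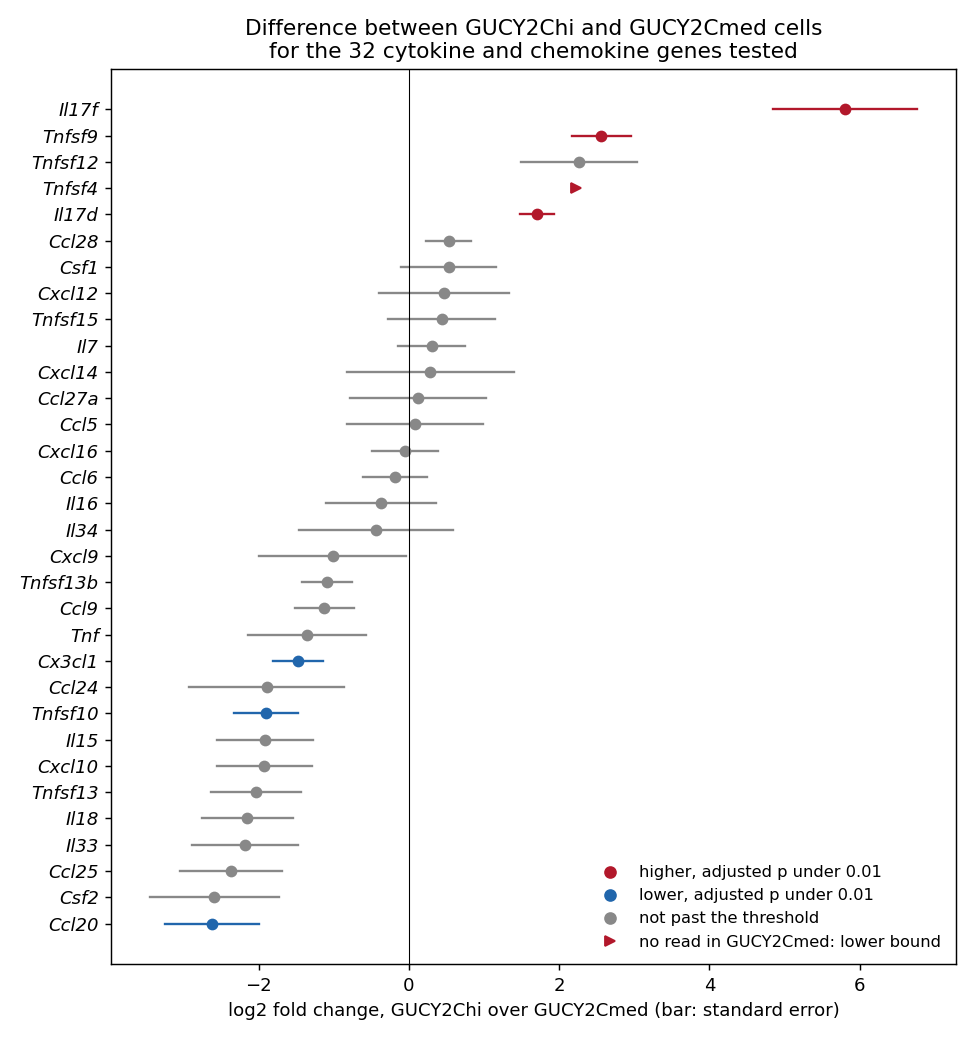
Log2 fold change of GUCY2Chi over GUCY2Cmed for the 32 tested members, with standard errors from the fit (5 libraries a group). Red and blue points passed an adjusted p of 0.01, grey points did not, and the triangle for Tnfsf4 is a lower bound. Of the 32, 4 are red and 3 are blue.

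The most abundant members were chemokines and an alarmin. Per kilobase of exon model, the highest mean levels in GUCY2Cmed were Ccl6 at 251 cpm per kb, Ccl25 at 226 cpm per kb, Il18 at 153 cpm per kb and Cx3cl1 at 33.3 cpm per kb. In GUCY2Chi the levels of the same genes were 220.1 cpm per kb for Ccl6, 43.8 cpm per kb for Ccl25, 34.4 cpm per kb for Il18 and 11.9 cpm per kb for Cx3cl1. Il17d, at 11.7 cpm per kb, had nearly the Cx3cl1 level in GUCY2Chi, and was at 3.60 cpm per kb in GUCY2Cmed.

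**Figure D2:**
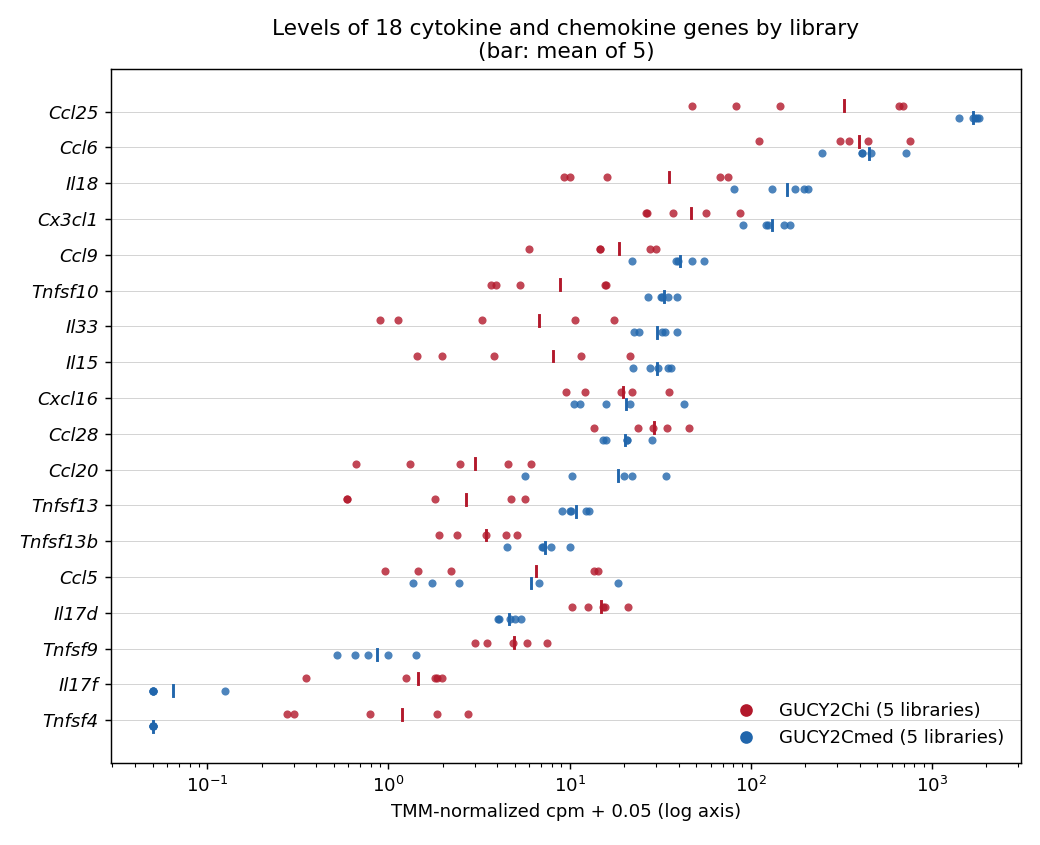
TMM-normalized cpm plus 0.05, on a log axis, for the 18 members described by name, with 1 point per library (5 GUCY2Chi in red, 5 GUCY2Cmed in blue) and a bar at each mean. Ccl25 in GUCY2Chi splits into libraries between 47.6 and 145 cpm and libraries 12 and 15 above 660.6 cpm, while the GUCY2Cmed libraries lie between 1412 and 1823 cpm.

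Of the 17 rows of chemokines that guide leukocytes to the gut and lymphoid organs, 4 were tested and 1 was called lower. Ccl20 (chr1:83116766-83119167, as the count table gives it in GRCm38 positions) encodes the ligand of CCR6, which draws dendritic cells and lymphocytes to the follicle-associated epithelium. In GUCY2Chi it was 4.51, 1.27, 2.42, 0.617 and 6.05 cpm in mice 2, 7, 12, 14 and 15, and in GUCY2Cmed it was 34.2, 22.0, 5.62, 10.2 and 20.0 cpm. The groups overlapped at a single pair, GUCY2Chi 15 over GUCY2Cmed 12, although every mouse had less Ccl20 in its own GUCY2Chi library. The log2 difference was -2.62 (SE 0.62, adjusted p = 0.00691, n = 5 a group), and of the 10 fits made without a library in turn, 3 called it. The 250 bases before its RefSeq start (chr1:83116516-83116765 of GRCm38.p6, plus strand) are shown because Ccl20 is a known target of NF-kB and held a match to the kappaB motif, in capitals, on the minus strand.
Ccl20 promoter: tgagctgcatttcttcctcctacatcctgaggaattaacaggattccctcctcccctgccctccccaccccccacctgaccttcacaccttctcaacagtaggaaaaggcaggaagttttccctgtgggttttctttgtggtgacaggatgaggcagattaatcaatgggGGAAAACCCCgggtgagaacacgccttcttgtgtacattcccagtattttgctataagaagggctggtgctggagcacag
The kappaB motif was searched on both strands and is found in 7.25% of the 32851 mouse promoter windows of that length in RefSeq. Of the 18 members described by name, 13 had at least 1 window, and the only other with a kappaB match was Ccl9. CAGATG, an E-box that basic helix-loop-helix factors can bind, was also searched on both strands and is found in 14.4% of all windows. It matched in 1 window each of Ccl28, Ccl25, Il33 and Tnfsf13b. In all, 6 of the 16 windows of these 13 genes held a match to either motif, and none of the windows of Il17d, Il17f, Cx3cl1 and Tnfsf10 did. The share of all windows with a match to either motif was not computed, so this count has no background beside it.

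Ccl25 encodes the small intestinal chemokine for T cells and plasma cells that carry CCR9. Its levels were 145, 47.6, 661, 83.1 and 694 cpm in the GUCY2Chi libraries of mice 2, 7, 12, 14 and 15, and 1412, 1733, 1688, 1771 and 1823 cpm in GUCY2Cmed. All GUCY2Chi libraries lay below all GUCY2Cmed libraries, and libraries 12 and 15 were the high pair within GUCY2Chi. The log2 difference was -2.37 (SE 0.67), which did not pass the threshold (adjusted p = 0.0163). Leaving out libraries 12 and 15, the high pair, had to widen the difference, which was then -4.18 (edgeR adjusted p = 1.61e-05). With all 10 libraries, limma-voom with the replicate block called Ccl25 (adjusted p = 0.00445). The adjusted p ranged from 1.61e-05 to 0.0488 over all alternatives. Ccl25 overlaps Elavl1 on the other strand, at a mean of 146 cpm against 1006 cpm for Ccl25, and whether the counting used strand is not given in the sources used here. Ccl28, a mucosal chemokine for plasma cells that bear CCR10, averaged 29.2 ± 11.9 cpm in GUCY2Chi and 20.2 ± 5.34 cpm in GUCY2Cmed (SD, n = 5 each), with a log2 difference of 0.53 (SE 0.30, adjusted p = 0.186).

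The inflammatory CC chemokines had 13 rows and 4 genes tested, none of them called. Ccl6, which attracts macrophages and other myeloid cells, had the highest level per length in both groups. It was 754, 112, 351, 446 and 312 cpm in GUCY2Chi and 247, 413, 460.5, 413 and 716 cpm in GUCY2Cmed, in mouse order, so that the highest and the lowest library both belonged to GUCY2Chi. The log2 difference was -0.19 (SE 0.43, adjusted p = 0.784). GUCY2Chi library 2, the highest, also had the highest sum of 11 goblet and Paneth cell markers, 68847 cpm against 11729.5 to 29641 cpm in the other 9 libraries, and the part of those cells in the Ccl6 level was not tested. Ccl9, a related chemokine of myeloid cells whose gene lies near Ccl6 on chromosome 11, averaged 18.6 ± 10.1 cpm in GUCY2Chi and 40.6 ± 12.3 cpm in GUCY2Cmed. Its log2 difference was -1.13 (SE 0.39, adjusted p = 0.041). The promoter windows of these neighbours are shown because only that of Ccl9 held a kappaB match, again in capitals and on the minus strand (Ccl9 at chr11:83578637-83578886 and Ccl6 at chr11:83593088-83593337, GRCm38.p6, both genes on the minus strand).
Ccl9 promoter: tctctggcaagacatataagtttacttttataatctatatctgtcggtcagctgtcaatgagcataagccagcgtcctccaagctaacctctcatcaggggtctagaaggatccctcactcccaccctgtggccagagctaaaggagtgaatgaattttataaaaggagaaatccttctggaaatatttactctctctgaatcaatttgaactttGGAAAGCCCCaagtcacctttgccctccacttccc
Ccl6 promoter: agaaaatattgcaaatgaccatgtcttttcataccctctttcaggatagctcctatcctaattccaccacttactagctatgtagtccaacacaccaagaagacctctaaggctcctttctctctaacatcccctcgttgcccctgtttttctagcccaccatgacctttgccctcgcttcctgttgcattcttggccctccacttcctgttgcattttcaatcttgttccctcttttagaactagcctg
The absence of the motif in the Ccl6 window says only that those letters are not there.

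Of 13 CXC and CX3C chemokine genes, 6 were tested and Cx3cl1 was called lower. Cx3cl1 (chr8:94772009-94782427) encodes fractalkine, a membrane-bound chemokine for CX3CR1 cells such as intestinal macrophages. It was 26.7, 37.3, 56.9, 26.5 and 86.8 cpm in GUCY2Chi and 166, 90.9, 122, 124 and 152 cpm in GUCY2Cmed. The groups did not overlap, and GUCY2Chi 15 came closest to the GUCY2Cmed range. The mean was 2.79-fold lower, at a log2 difference of -1.48 (SE 0.33, adjusted p = 0.0052), a call kept in 3 of 10 fits without 1 library. Cxcl16, the ligand of CXCR6, averaged 19.7 ± 10.2 cpm in GUCY2Chi and 20.4 ± 13.3 cpm in GUCY2Cmed, with a log2 difference of -0.05 (SE 0.44, adjusted p = 0.951).

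Both tested alarmins lay lower in every mouse without passing the threshold. Il18, whose product is activated by caspase-1, was 9.95, 9.23, 67.4, 16.0 and 74.8 cpm in GUCY2Chi and 80.4, 130.4, 206, 197 and 175 cpm in GUCY2Cmed. Libraries 12 and 15 again made the upper pair of GUCY2Chi, still below the lowest GUCY2Cmed library. The log2 difference was -2.15 (SE 0.61, adjusted p = 0.0159). With the mouse as a replicate block it was -2.66 and passed (edgeR adjusted p = 0.00698), and over all alternatives tried the adjusted p ranged from 3.46e-05 to 0.0472. Il33, a nuclear alarmin that acts on type 2 lymphocytes, averaged 6.69 ± 7.30 cpm against 30.5 ± 6.92 cpm, with a log2 difference of -2.19 (SE 0.71, adjusted p = 0.0289). Il15, a growth factor of intraepithelial lymphocytes and natural killer cells, averaged 8.05 ± 8.61 cpm against 30.4 ± 5.64 cpm, with a log2 difference of -1.92 (SE 0.64, adjusted p = 0.0338). Neither gene's groups overlapped. Without GUCY2Chi libraries 12 and 15 the differences were -3.73 for Il18, -4.12 for Il33 and -3.66 for Il15, and each passed (adjusted p = 3.46e-05, 7.53e-05 and 2.74e-05). Those libraries were the high pair of GUCY2Chi for each of these genes, so leaving them out had to widen the differences. Il18 overlaps Bco2 on the other strand, at a mean of 34.7 cpm against 96.7 cpm for Il18. In sorted bulk RNA, fewer cells of a type and less RNA per cell cannot be told apart.

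Of the 5 IL-17 family genes, 2 were tested and both were higher in GUCY2Chi. Il17d (chr14:57524777-57543166) encodes a less studied member of the family that is made outside the T cell lineage. It was 10.2, 15.7, 15.2, 21.0 and 12.5 cpm in GUCY2Chi and 4.96, 4.66, 5.33, 3.98 and 4.02 cpm in GUCY2Cmed. Every GUCY2Chi library lay above every GUCY2Cmed library, and libraries 12 and 15 were not apart from the other GUCY2Chi libraries. The mean was 3.26-fold higher, at a log2 difference of 1.70 (SE 0.23, adjusted p = 2.59e-04). Il17f (chr1:20777146-20790617) encodes a cytokine best known from T helper 17 cells that induces epithelial chemokines and antimicrobial proteins. It was 1.82, 1.21, 0.303, 1.93 and 1.76 cpm in GUCY2Chi, and in GUCY2Cmed it was 0.0751 cpm in mouse 14 and 0 in the other mice. That is 104 reads against 1 read, a ratio of 87.7 with a 95% exact counting interval of 15.4 to 3498, and the adjusted p was 5.39e-04. GUCY2Chi library 12, which had the highest Cd3e of all libraries at 11.4 cpm, had the lowest Il17f of its group. Which cells the Il17f reads came from was not tested. Il17a, the closest relative of Il17f, had no read in any library. The Il17d and Il17f calls held in all 10 fits without 1 library.

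The TNF superfamily had 12 members, of which 8 were tested, 2 were higher and 1 was lower. Tnfsf9 (chr17:57105325-57107757) encodes 4-1BB ligand, a costimulator of T cells. It was 7.46, 4.82, 5.75, 3.47 and 2.96 cpm in GUCY2Chi and 0.468, 1.36, 0.720, 0.601 and 0.941 cpm in GUCY2Cmed. The groups did not overlap and the mean was 5.97-fold higher, at a log2 difference of 2.56 (SE 0.40, adjusted p = 6.94e-04), held in all 10 fits without 1 library. A lincRNA, Gm11110, overlaps Tnfsf9 on the other strand at a mean of 1.71 cpm. Tnfsf4 (chr1:161395409-161418410) encodes OX40 ligand, another T cell costimulator. It was 0.740, 1.81, 0.227, 2.70 and 0.252 cpm in GUCY2Chi and had no read in any GUCY2Cmed library. With 83 reads against 0 it was at least 4.69-fold higher (floor of 3 counts per library, counting error only). Libraries 12 and 15 were low within GUCY2Chi. The adjusted p was 0.00656, it was 0.0303 in edgeR with the replicate block, and it ranged from 1.97e-05 to 0.0303 over all alternatives tried. Without a library in turn it was still tested in 7 fits and called in 2 of them. Tnfsf4 passed the filter through GUCY2Chi alone, as did Il17f, so a gene of this kind could be tested only because it was present there.

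Tnfsf10 (chr3:27317028-27342427), which encodes the death ligand TRAIL, was the called gene in the other direction. It was 5.31, 3.62, 15.7, 3.85 and 15.7 cpm in GUCY2Chi and 32.1, 34.8, 32.5, 27.0 and 39.1 cpm in GUCY2Cmed. The groups did not overlap, and the higher GUCY2Chi pair was again libraries 12 and 15. The mean was 3.74-fold lower, at a log2 difference of -1.90 (SE 0.43, adjusted p = 0.00536), a call kept in 2 of 10 fits without 1 library. Without libraries 12 and 15 the log2 differences of the 3 called lower members were -2.93 for Tnfsf10, -2.08 for Cx3cl1 and -3.07 for Ccl20, and all passed. Tnfsf13 (APRIL) and Tnfsf13b (BAFF), which sustain B cells and plasma cells, lay lower in GUCY2Chi in all 5 mice without passing the threshold. Tnfsf13 averaged 2.63 ± 2.38 cpm against 10.8 ± 1.61 cpm (log2 difference -2.04, SE 0.60, adjusted p = 0.0183), and Tnfsf13b 3.42 ± 1.36 cpm against 7.30 ± 1.96 cpm (log2 difference -1.09, SE 0.33, adjusted p = 0.0221). Tnfsf13 lies under an antisense gene, Tnfsf13os, with a mean of 13.1 cpm against 6.73 cpm for Tnfsf13 itself, and reads of the pair could be told apart only with strand. Libraries 12 and 15 were the high pair of GUCY2Chi for Tnfsf13 and Tnfsf13b too, so leaving them out had to widen the differences. Without them both genes passed, with log2 differences of -3.48 and -1.49.

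Of the other families, 3 of 5 genes of the colony-stimulating group with Il34 and Il3, 2 of 4 common gamma chain cytokines, and 1 of 12 genes of the IL-6, IL-12 and IL-10 families were tested, and none was called. The type 2 and tuft cell cytokines had 7 genes and none past the filter. Their epithelial members Il25 and Tslp, chosen for mention after their counts were seen, were scarce. Il25 had 14 reads over GUCY2Chi and 1 read over GUCY2Cmed, and Tslp had 19 reads against 1. The ratios were 11.8 (95% exact counting interval 1.80 to 499) for Il25 and 16.0 (2.55 to 666) for Tslp, with no test between groups. The intervals cover counting error in pooled reads only, and GUCY2Chi library 12 alone held 9 of the Tslp reads. Members of other families below the filter could also lean to GUCY2Chi, such as Csf3 (25 reads against 0) and Il12a (14 against 1). Cxcl13 leaned the other way, with 9 reads against 27. The sum of 12 markers of tuft cells, the cells known to make Il25, was 39.3 to 71.7 cpm in GUCY2Chi and 17.98 to 30.6 cpm in GUCY2Cmed. Of these 12 markers, 1 was called higher, 1 was called lower and 10 were not called. The part of tuft cells was not tested. Over all 30 members with reads below the filter, the total over the 10 libraries was 1 to 47 reads, 8 were seen in a single library and 14 had 10 reads or more.

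Cd3e, a chain of the T cell receptor complex, and Ptprc, the pan-leukocyte gene for CD45, were used to mark members carried by lymphocytes. Cd3e was 1.21, 1.21, 11.4, 2.08 and 4.85 cpm in GUCY2Chi and 0.374, 0.401, 3.82, 8.34 and 2.14 cpm in GUCY2Cmed (log2 difference 0.45, SE 0.87, adjusted p = 0.735). Ptprc ranged from 0.771 to 2.12 cpm in GUCY2Chi and from 0.281 to 2.16 cpm in GUCY2Cmed (log2 difference 0.05, SE 0.53, adjusted p = 0.962). Of 18 lymphocyte markers 14 were tested and 0 were called in either direction by edgeR, and their sum was 35.9 to 305 cpm in GUCY2Chi and 37.5 to 209.6 cpm in GUCY2Cmed. Ccl5, a chemokine of cytotoxic lymphocytes, was the member that moved most closely with Cd3e. It was 1.41, 0.904, 13.6, 2.16 and 14.3 cpm in GUCY2Chi and 1.31, 1.69, 6.70, 18.4 and 2.40 cpm in GUCY2Cmed. The 4 libraries with the most Cd3e, GUCY2Chi 12 and 15 and GUCY2Cmed 12 and 14, were also the 4 with the most Ccl5. The ratio of Ccl5 to Cd3e reads lay between 0.75 and 4.20, a 5.60-fold spread, where Ccl5 itself spread 20.3-fold. This was the narrowest ratio to Cd3e among the 23 genes, most of them members, that had reads in every library. Ptprc did not single out Ccl5, whose ratio to it spread 9.94-fold. Ratios to Ptprc were narrower for Ccl6 (6.65-fold) and Tnfsf13b (7.72-fold), among others, which themselves spread only 6.76-fold and 5.38-fold. The log2 difference of Ccl5 was 0.08 (SE 0.91, adjusted p = 0.961), and -2.02 without GUCY2Chi libraries 12 and 15 (adjusted p = 0.0941). These 4 libraries come from both groups, so a member whose groups do not overlap cannot have them as its highest 4. The order over the 10 libraries was therefore not read for the called members. Within GUCY2Chi, libraries 12 and 15 were the high pair for Cx3cl1 and Tnfsf10, and the part of lymphocytes was not tested. Il17d was 15.2 and 12.5 cpm in GUCY2Chi 12 and 15, within the 10.2 to 21.0 cpm of that group. It was 5.33 and 3.98 cpm in GUCY2Cmed 12 and 14, the highest and the lowest of that group. GUCY2Cmed library 14, second in Cd3e, had 1 read of Il17f and none of Tnfsf4. Which cells the reads of these 3 genes came from was not tested.

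Several members that were low in GUCY2Chi had a narrow read ratio, over all 10 libraries, to the enterocyte gene Alpi, intestinal alkaline phosphatase. Alpi was 139.6, 63.3, 802, 48.6 and 867 cpm in GUCY2Chi and 3285, 3730.0, 1766, 2159 and 2715 cpm in GUCY2Cmed, with libraries 12 and 15 again the high pair of GUCY2Chi. The read ratio to Alpi spread 3.57-fold over the 10 libraries for Il33, which itself spread 46.5-fold. For Ccl25 the ratio spread 3.98-fold against 38.3-fold, for Tnfsf13 4.69-fold against 23.5-fold, and for Il15 4.80-fold against 26.2-fold. Ratios of the called lower genes to Alpi were wider. They spread 24.2-fold for Cx3cl1, 10.7-fold for Ccl20 and 8.50-fold for Tnfsf10, against own spreads of 6.24-fold, 55.4-fold and 10.8-fold. These spreads include the gap between the groups. Within GUCY2Cmed, Il33 was 22.8, 24.2, 32.5, 39.3 and 33.7 cpm in mouse order. Tnfsf13 was 8.99, 9.96, 10.2, 12.7 and 12.3 cpm. Both were lowest in mice 2 and 7, where Alpi was highest. Ccl25 was lowest in mouse 2, while Il15 was lowest in mouse 12, as was Alpi. The part of enterocytes in these values was not tested.

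Ccl27a, a chemokine best known from skin, moved with another marker. It was 0.672, 4.34, 5.22, 0.385 and 12.4 cpm in GUCY2Chi and 5.52, 0.161, 7.56, 4.88 and 3.08 cpm in GUCY2Cmed. Nrgn, a gene of forebrain neurons, was 20.0, 305, 289, 21.9 and 933 cpm in GUCY2Chi and 395, 8.91, 521, 387 and 176 cpm in GUCY2Cmed. Ccl27a spread 77.3-fold over the 10 libraries and its ratio to Nrgn only 2.66-fold, the narrowest of the genes so measured, with the library order nearly shared. The log2 difference of Ccl27a was 0.12 (SE 0.90, adjusted p = 0.943). Ccl27a overlaps Il11ra1 on the other strand (7.91 cpm on average against 4.42 cpm), and copies of it on unplaced scaffolds could share its reads. Where the forebrain transcripts came from was not tested. Ccl27a was singled out after its values were seen.

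**Figure D3:**
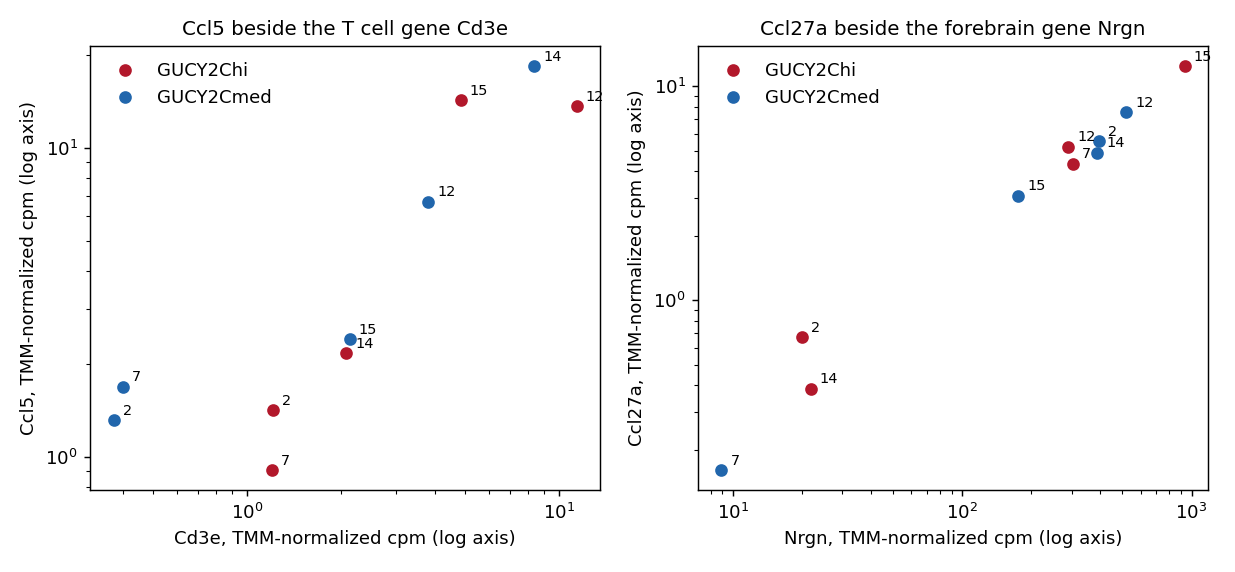
TMM-normalized cpm of Ccl5 against Cd3e (left) and of Ccl27a against Nrgn (right) on log axes, with 1 point per library (GUCY2Chi red, GUCY2Cmed blue) and the mouse number beside it. Points of both groups lie along the same rising band in each panel, from 0.904 to 18.4 cpm of Ccl5 and from 0.161 to 12.4 cpm of Ccl27a.

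Receptors for cytokines and chemokines were taken as a list of 87 genes, which also holds receptors of interferons, Fas ligand and other ligands outside the 92 members. Of these, 7 had no read and 45 were tested, with 9 called higher (13.9% of all genes were) and 7 called lower (8.79% of all genes were). The median log2 difference of the 45 was 0.25. Tnfrsf11b, which encodes osteoprotegerin, a soluble decoy for RANK ligand and TRAIL, was called higher. It was 43.2, 50.5, 55.3, 41.1 and 19.6 cpm in GUCY2Chi and 0.187, 0.0803, 0.144, 0.150 and 0.0856 cpm in GUCY2Cmed, with a log2 difference of 8.24 (SE 0.40, adjusted p = 1.52e-06). Il6ra, the ligand-binding chain for IL-6, averaged 6.48 ± 4.48 cpm against 0.0867 ± 0.0900 cpm (log2 difference 6.15, SE 0.80, adjusted p = 1.86e-04). Il17re, the receptor chain for IL-17C, was 21.2, 78.3, 4.47, 49.6 and 5.67 cpm in GUCY2Chi and 0.187 to 1.63 cpm in GUCY2Cmed (log2 difference 5.13, SE 0.89, adjusted p = 0.0013 in edgeR and 0.0265 in limma-voom). Its GUCY2Chi libraries 12 and 15 were the low pair. The IL-18 receptor chain gene Il18r1 averaged 12.6 ± 6.20 cpm against 0.384 ± 0.217 cpm (log2 difference 4.99, SE 0.50, adjusted p = 3.86e-05). Its partner chain Il18rap had 108 reads against 0, at least 6.06-fold higher (adjusted p = 0.00181, and 0.0220 with the replicate block). Il18bp, whose product binds and neutralizes IL-18, was 9.95 to 15.5 cpm in GUCY2Chi and 4.32 to 6.08 cpm in GUCY2Cmed (log2 difference 1.3, SE 0.21, adjusted p = 8.26e-04). Thus the receptor chains and the binding protein of IL-18 were higher in the cells in which Il18 itself was at 35.5 ± 32.7 cpm against 158 ± 52.2 cpm. Both receptor chain genes, Il18r1 and Il18rap, passed the filter only through their reads in GUCY2Chi. Tnfrsf12a, the receptor for TWEAK, averaged 67.2 ± 20.7 cpm against 11.2 ± 4.61 cpm (log2 difference 2.58, SE 0.33, adjusted p = 1.77e-04). The TWEAK gene Tnfsf12 was at 0.414 ± 0.124 cpm against 0.0766 ± 0.0921 cpm without a call (adjusted p = 0.0297). Tnfsf12 overlaps the antisense gene Tnfsf13os, at a mean of 13.1 cpm against 0.245 cpm for Tnfsf12, and its reads could be told apart only with strand.

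The receptors called lower in GUCY2Chi are described next. Fas, a death receptor, was 11.8, 3.32, 21.7, 4.09 and 29.6 cpm in GUCY2Chi and 87.7, 50.7, 45.7, 60.1 and 62.1 cpm in GUCY2Cmed, with no overlap (log2 difference -2.12, SE 0.54, adjusted p = 0.00962, and 0.0127 with the replicate block). Ifngr2, a chain of the interferon gamma receptor, averaged 139.8 ± 66.7 cpm against 363 ± 49.1 cpm (log2 difference -1.38, SE 0.29, adjusted p = 0.00391). Ifnlr1, of the interferon lambda receptor, averaged 1.83 ± 0.928 cpm against 5.37 ± 2.08 cpm (log2 difference -1.55, SE 0.39, adjusted p = 0.00925, and 0.0284 with the replicate block). Ifnar1 and Ifnar2, of the type I interferon receptor, were not called, with log2 differences of -0.54 and 0.65 (adjusted p = 0.0587 and 0.0344), nor were the death receptor genes Tnfrsf1a and Tnfrsf10b, at -1.001 and -1.98 (adjusted p = 0.0107 and 0.0138). Il17rc, a chain of the receptor for IL-17A and IL-17F, averaged 88.2 ± 46.0 cpm against 249 ± 46.9 cpm (log2 difference -1.50, SE 0.33, adjusted p = 0.00499). It was thus lower in the cells that held nearly all Il17f reads. Tnfrsf11a, which encodes RANK, averaged 10.8 ± 4.82 cpm against 32.3 ± 5.36 cpm (log2 difference -1.58, SE 0.30, adjusted p = 0.00218), while the gene for its ligand, Tnfsf11, had no read in any library. With the replicate block 5 receptors were higher and 7 lower in edgeR, of which 5 and 5 were called in both fits, where 8.24% and 4.96% of all genes were called. Of the 10 fits without a library in turn, Fas and Ifnlr1 were called in 1, Il17rc in 3, Ifngr2 in 4 and Tnfrsf11a in all 10. Without GUCY2Chi libraries 12 and 15, 11 of 43 receptors tested were higher and 9 lower, of which 8 and 6 were called in both fits. All receptors named here as called kept their calls except Cxcr4, which was not tested in that fit. Of the 9 receptors called higher, 5 (Tnfrsf11b, Il6ra, Il18rap, Il1r1 and Cxcr4) lay under the filter level in every GUCY2Cmed library, so that they could be tested only because they were present in GUCY2Chi. The same holds for Il18r1, which passed that level in GUCY2Cmed only in mouse 7, at 0.723 cpm.

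Among 26 tested genes for cytokine processing, release and NF-kB feedback, Il18bp was the 1 called higher and 7 were called lower, where 13.9% and 8.79% of all genes tested were. Casp1, which cleaves pro-IL-18, was 74.6, 48.2, 115, 57.3 and 116 cpm in GUCY2Chi and 241, 322, 244, 239 and 242 cpm in GUCY2Cmed, with no overlap (log2 difference -1.65, SE 0.26, adjusted p = 8.01e-04). Gsdmd, which forms the pore through which IL-18 leaves the cell, averaged 160.2 ± 77.1 cpm against 478 ± 119 cpm (log2 difference -1.58, SE 0.32, adjusted p = 0.00302). Casp4, an inflammatory caspase that cleaves gasdermin D, averaged 6.73 ± 2.08 cpm against 16.8 ± 5.61 cpm (log2 difference -1.31, SE 0.29, adjusted p = 0.00493). Tnfaip3, the NF-kB inhibitor A20, averaged 2.29 ± 0.538 cpm against 7.21 ± 2.91 cpm (log2 difference -1.65, SE 0.34, adjusted p = 0.00331, and 0.0123 with the replicate block). Rhbdf2, which guides the TNF-shedding protease to the cell surface, averaged 6.94 ± 0.987 cpm against 13.6 ± 3.64 cpm (log2 difference -0.97, SE 0.21, adjusted p = 0.00468, and 0.0133 with the replicate block). With the replicate block 3 of the 7 lower calls remained. Without GUCY2Chi libraries 12 and 15, 7 of 26 were lower, 4 of them shared, and Casp4 (adjusted p = 0.0104) and Rhbdf2 (adjusted p = 0.0175) were no longer called. Of the 10 fits without a library in turn, Casp4 was called in 3, Rhbdf2 in 4, Tnfaip3 and Gsdmd in 6 and Casp1 and Il18bp in all 10. The enterocyte marker sum was lower in all GUCY2Chi libraries too, at 2580 to 27542 cpm against 47898 to 65527 cpm, and its part in the lower values of these genes was not tested.

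**Figure D4:**
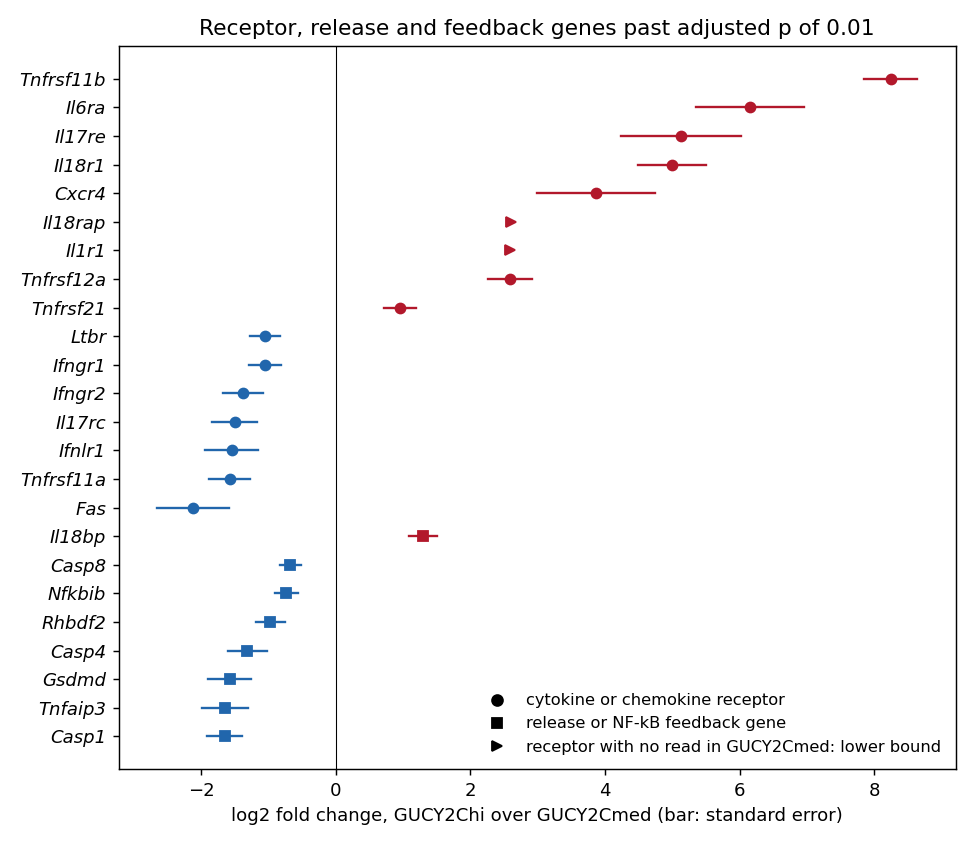
Log2 fold change of GUCY2Chi over GUCY2Cmed, with standard errors, for the receptor genes (circles) and the release and feedback genes (squares) past an adjusted p of 0.01. Triangles are lower bounds for Il18rap and Il1r1, which had no read in GUCY2Cmed. In all, 9 receptors and Il18bp lie to the right of 0, and 7 receptors and 7 release and feedback genes lie to the left.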

How the data were processed

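RNA was sequenced from 10 libraries of sorted cells, 5 per group. The deposited table holds raw gene counts, which the authors made with STAR. The labels name mm9, but the positions of all 85 members on chromosomes match RefSeq GRCm38. The authors filtered at 0.5 cpm in at least 3 libraries and used limma 3.40.6 and edgeR 3.26.8. Their fold changes, p-values and 20 normalized per-library columns were not used.

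Counts were tested here without a block by edgeR 4.0.16 (quasi-likelihood, TMM, R 4.3.3) with the same filter and an adjusted p (Benjamini-Hochberg) under 0.01 over 15703 genes, since the study's methods give no model. The biological coefficient of variation was 0.458. Alternatives were limma 3.58.1 (voom), DESeq2 1.42.0, the replicate number as a block, other scalings and filters, and fits without single libraries. The edgeR, limma-voom and DESeq2 fits were tested on simulated counts. Both sorts came from the same mice, which pairs the numbers. Deviations from the group means correlated at -0.11, -0.223, 0.272, -0.124 and 0.061 for mice 2, 7, 12, 14 and 15. No source says that libraries of a group came from separate cell preparations beyond the mouse number, so p-values measure the spread between these libraries.

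The members, gene lists and roles were chosen with earlier results of these data known. Named were all called members, the 15 most abundant members, Cd3e, Ptprc and, per direction, the 5 receptor and the 5 release genes with the largest change among those called at a mean of at least 1 cpm. Ccl27a, Il17a, Il25, Tslp, Tnfsf11, Tnfsf12, Alpi, Il18rap, Il1r1, Cxcr4, Tnfrsf1a, Tnfrsf10b, Ifnar1, Ifnar2 and the overlapping genes were named after their values were seen. So were Csf3, Il12a and Cxcl13. Promoters came from RefSeq (GRCm38.p6). Counting intervals and floors cover counting error only. Other marker lists gave few calls: 1 of 9 tested myeloid, mast and B cell genes, 2 of 5 mesenchyme and endothelium genes and 1 of 12 tuft cell genes were higher, 1 tuft cell gene and 3 of 12 enterocyte genes were lower, 0 of 11 goblet and Paneth cell genes and 0 of 12 forebrain genes were called by edgeR, and of 9 epithelial genes 2 were higher and 1 was lower.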

Additional observations from a re-analysis of the deposited data

Results flagged for a closer look

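Of 36 groups of 5 libraries examined over the named members, 1 held a library far from the others by Dixon's ratio, and chance flags about 1 in 20. It was Il17f in GUCY2Cmed, at 0.07509 cpm in library 14 and 0 in the other 4. That value is 1 read.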

How the results depend on the processing

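The calls of Il17d, Il17f and Tnfsf9 held in every setting in which they were tested. The 3 members lower in GUCY2Chi became 8 with limma-voom, 9 with DESeq2, 5 with limma-voom and the replicate block, 0 with library size alone, 10 without GUCY2Chi libraries 12 and 15, and 12 at an adjusted p under 0.05. Of all genes, 11.4%, 14.2%, 8.8%, 3.55%, 14.4% and 17.6% were lower in the same settings. In edgeR with the replicate block 4 members were lower and 3 higher, the changes being Il18 gained and Tnfsf4 lost. Of the receptors described by name, the block in edgeR also gained Tnfrsf1a (adjusted p = 0.00815) and lost Il1r1 (0.0218) and Cxcr4 (0.0150). Other changes by the block among the named receptor and release genes are given beside their values. Il15, Il33 and Tnfsf13 passed in limma-voom (adjusted p = 0.00436, 0.00359 and 0.00306) and not once the block was added (0.0173, 0.0147 and 0.0156). The 4 higher members became 2 when 0.5 cpm was asked of 5 libraries, as Il17f and Tnfsf4 were then not tested. Receptors lower (7) became 11 with DESeq2, 1 with library size alone and 11 at 0.05, and receptors higher (9) became 5 with the replicate block. Release and feedback genes lower (7) became 11 with DESeq2, 3 with the replicate block, 2 with library size alone and 13 at 0.05. Leaving out 1 library gave 0 to 7 lower and 3 to 4 higher members, 1 to 9 lower and 7 to 10 higher receptors, and 1 to 9 lower release genes. Members lower fell to 0 without GUCY2Chi 2, 7 or 14 or GUCY2Cmed 2 or 15, to 1 without GUCY2Cmed 7, 12 or 14, and rose to 7 without GUCY2Chi 15. Shares of all genes called in these fits without 1 library are not given here, so the changes cannot be read as particular to the members. The cause was not tested. Signs turned for Cxcl16, Ccl5 and Ccl6. The log2 difference of Cxcl16 was 0.0172 with limma-voom, 0.19 with library size alone, 0.15 without libraries 12 and 15 and -0.31 to 0.45 without 1 library. That of Ccl5 was -0.15 with limma-voom, -2.02 without 12 and 15, and -0.41 to 1.09 without 1 library. That of Ccl6 was 0.0881 with library size alone and -0.51 to 0.0617 without 1 library. The 30 members with 1 to 47 reads over all libraries could not be tested.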
